A study of Mus musculus with 16 samples.

Results

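The clustered protocadherins are cell adhesion genes that lie side by side in an alpha, a beta and a gamma cluster. The genes described here are those whose symbol starts with Pcdha, Pcdhb or Pcdhg and that carry a probe set annotated with that symbol alone. The reference gene table lists 58 genes with such symbols, 14 alpha, 22 beta and 22 gamma. The rule found 20 of them, Pcdhb1 to Pcdhb20, each with 1 probe set, among 19505 named genes in all. The other 38, which include all alpha and gamma genes, were not analysed here, so every member is a beta protocadherin. Whether these 38 lie on probe sets annotated with several symbols was not tested.

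Clustered protocadherins are cadherin-family proteins that bind the same isoform on a neighboring cell, and a neuron's set of isoforms serves it as a surface label. Each neuron uses only some of the promoters, in a choice that involves CpG methylation, the DNA-binding protein CTCF and the cohesin complex. Alpha and gamma proteins share constant cytoplasmic ends, whereas each beta gene encodes its whole protein in an exon of its own and lacks such a shared end. In olfactory sensory neurons of the mouse the clusters are needed for axons to gather in the right glomeruli of the olfactory bulb.

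The series measured RNA from olfactory mucosa of mice carrying the S100a5-tauGFP reporter, in which S100a5, a gene that olfactory neurons transcribe when they are active, drives the green fluorescent protein. The 24 mice, of both sexes and 7 to 12 weeks old, stood in clean air chambers for 40 h, and from 26 h on they received pulses of 10 s, repeated every 20 min, of octanoic acid, a fatty acid odorant, or of filtered air (the vehicle). Tissue of 3 mice was pooled, dissociated and sorted, which gave 4 groups of 4 Clariom S arrays: GFP+ and GFP- cells after octanoic acid, and GFP+ and GFP- cells after clean air. The GFP+ and the GFP- sample of a pool came from the same mice, and all mice carried the reporter, so no array shows mucosa without it. GFP- cells are every cell that the sort left without the reporter signal, neurons among them.

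The sort was checked on its own reporter gene. S100a5 was higher in GFP+ cells by 1.53 ± 0.52 log2 with octanoic acid and by 1.32 ± 0.22 log2 with clean air (SD, n = 4 pools each), with limma adjusted p-values of 0.000139 and 0.000496. Omp, the marker of mature olfactory neurons, averaged 18.84 log2 in GFP+ and 18.67 log2 in GFP- cells with octanoic acid and 18.83 and 18.69 log2 with clean air. Of 14 mature neuron genes 1, Ano2, passed as higher in GFP+ cells in each treatment. The median difference of the 14 genes was 0.22 log2 with octanoic acid and 0.24 log2 with clean air, beside 0.11 log2 over all genes in each. Their mean signal ran from 16.60 to 16.68 log2 in octanoic GFP+ arrays against 16.34 to 16.51 in octanoic GFP- arrays. In clean air it ran from 16.62 to 16.68 log2 in GFP+ arrays against 16.29 to 16.51 in GFP- arrays. All 11 leukocyte genes measured were lower in GFP+ cells in both treatments: their mean signal ran from 6.05 to 7.33 log2 in octanoic GFP+ arrays against 11.42 to 13.29 in octanoic GFP- arrays, and from 5.84 to 6.93 in clean air GFP+ arrays against 11.16 to 12.56 in clean air GFP- arrays. Of 12 immature neuron genes, 8 were lower in GFP+ cells with octanoic acid and 7 with clean air. Beside these lists, 6.26% of all genes were higher and 10.9% lower with octanoic acid, and 5.83% and 9.58% with clean air. The GFP+ array of octanoic pool 3 had a mean of 10.03 log2 over 11 genes of sustentacular cells, the supporting cells of the epithelium, against 7.79 to 9.04 in the other GFP+ arrays. In bulk arrays, fewer cells of a type and less RNA per cell cannot be told apart.

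The beta protocadherins ranged from signals at the array background to 1 gene well above it. Signals were read against 5222 negative-control probe sets, whose median of 6.20 log2 was taken as background and whose 75th and 95th percentiles were 7.54 and 10.4 log2. Of the 20 members, 17 had a mean over all arrays above the median of the negative controls, 11 above their 75th percentile and 1, Pcdhb1, above their 95th percentile. A group was counted as at background where its mean minus its SD was below 6.20 log2. This level is common to all arrays, whose own negative-control medians ran from 5.80 to 6.77 log2. By that rule 14 members were above background in all 4 groups, 3 were at background in all of them (Pcdhb3, Pcdhb10 and Pcdhb15), and 3 were at background in some groups (Pcdhb2, Pcdhb6 and Pcdhb13). SDs within a group of 4 arrays ran from 0.05 to 0.74 log2, with a median of 0.32. The beta genes resemble each other in sequence, and whether a probe set also binds RNA of a paralog was not tested.

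Pcdhb1, the first gene of the cluster, whose promoter lacks the conserved element that most clustered protocadherin promoters share, had signals of 16.12, 16.35, 16.06 and 16.02 log2 in octanoic GFP+ arrays and 16.01, 15.95, 16.11 and 15.99 in octanoic GFP- arrays. In clean air it had 16.16, 16.16, 16.21 and 16.27 log2 in GFP+ arrays and 15.87, 15.81, 15.94 and 15.75 in GFP- arrays. The clean air groups did not overlap, with every GFP+ array above every GFP- array, whereas the octanoic groups did. The mean difference was 0.13 ± 0.20 log2 with octanoic acid and 0.36 ± 0.11 log2 with clean air (SD, n = 4 pools each). Neither passed the threshold (limma adjusted p = 0.581 and 0.124).

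With octanoic acid, 3 of the 20 beta protocadherins were higher in GFP+ than in GFP- cells of the same pool, Pcdhb6, Pcdhb13 and Pcdhb14, and 0 were lower (limma with Benjamini-Hochberg adjustment over all genes, adjusted p under 0.05). Of all genes tested, 6.26% were higher and 10.9% lower by that rule. The unadjusted p was under 0.05 for 10 members, against 30.3% of all genes. The difference was above 0 for 18 members, with Pcdhb9 (-0.38 log2) and Pcdhb16 (-0.08 log2) the exceptions, against 62.61% of all genes. The members' median difference was 0.40 log2, beside a median of 0.11 log2 over all genes, so that it lay 0.29 log2 above the shift of all genes. It lay below the shift of the negative-control probe sets, whose median difference was 0.46 log2 with octanoic acid, with 83.8% above 0.

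Pcdhb14, an adhesion isoform like the other members, had 10.60, 10.48, 9.73 and 10.22 log2 in octanoic GFP+ arrays and 10.32, 9.30, 9.52 and 9.37 in octanoic GFP- arrays. In every pool the GFP+ array was the higher one, although the groups overlapped through the bright GFP- array of pool 1. The difference was 0.63 ± 0.46 log2 (SD, n = 4 pools; limma adjusted p = 0.0358), which is 1.54-fold. Pcdhb13 had 7.29, 7.40, 6.29 and 7.07 log2 in octanoic GFP+ arrays and 6.88, 5.91, 5.82 and 6.35 in octanoic GFP- arrays. Here too each pool had the higher signal in GFP+ cells while the groups overlapped, and the GFP- mean was at background. The difference was 0.77 ± 0.50 log2 (SD, n = 4 pools; limma adjusted p = 0.0220), or at least 1.52-fold, with GFP- arrays under the background raised to it. Pcdhb6 had 6.84, 6.91, 6.27 and 7.02 log2 in octanoic GFP+ arrays and 6.45, 5.78, 6.03 and 5.46 in octanoic GFP- arrays. The GFP+ array was the higher one of each pool, the array of pool 3 lay under the GFP- array of pool 1, and 3 of the GFP- arrays were under the background. The difference was 0.83 ± 0.62 log2 (SD, n = 4 pools; limma adjusted p = 0.0178), or at least 1.42-fold. The pool 3 GFP+ signals of Pcdhb13 and Pcdhb6 were below that array's own negative-control median of 6.71 log2. In pool 3 the differences of Pcdhb14, Pcdhb13 and Pcdhb6 were 0.21, 0.46 and 0.24 log2, below the negative controls' median difference of 0.87 log2. In pools 1, 2 and 4 their differences were above that of the negative controls.

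Of the other 17 members with octanoic acid, none passed the threshold, and their adjusted p-values ran from 0.0580 to 0.801. Counting pools, 9 members were higher in GFP+ cells in 4 of 4 octanoic pools, against 19.2% of all genes, and 0 had every GFP+ array above every GFP- array, against 7.25% of all genes. The number past the threshold rested on single pools: it was 5 without pool 1, 0 without pool 2, 5 without pool 3 and 1 without pool 4, while 4.48%, 6.72%, 4.45% and 3.18% of all genes were higher in the same 4 fits. Without pool 3, whose GFP+ array had the high sustentacular signal, the 3 genes stayed past the threshold and Pcdhb11 (0.84 log2, adjusted p = 0.0162) and Pcdhb17 (0.61 log2, adjusted p = 0.0319) joined them.

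With clean air, 5 of the 20 members were higher in GFP+ cells, Pcdhb11, Pcdhb13, Pcdhb14, Pcdhb17 and Pcdhb20, and 0 were lower, by the same limma test. Of all genes, 5.83% were higher and 9.58% lower. The unadjusted p was under 0.05 for 11 members, against 27.3% of all genes. The difference was above 0 for all 20 members, from 0.12 log2 for Pcdhb7 to 0.83 log2 for Pcdhb13, against 64.33% of all genes. Without clean air pool 3 the difference of Pcdhb10, at background in all groups, was -0.088 log2. The members' median difference of 0.44 log2 lay 0.33 log2 above the median over all genes, 0.11 log2. Pcdhb13 and Pcdhb14 passed in both treatments, 6 members passed in at least 1, and 14 passed in neither. The same counts over all genes are not given here, so whether these are many or few is left unread.

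**Figure D1:**
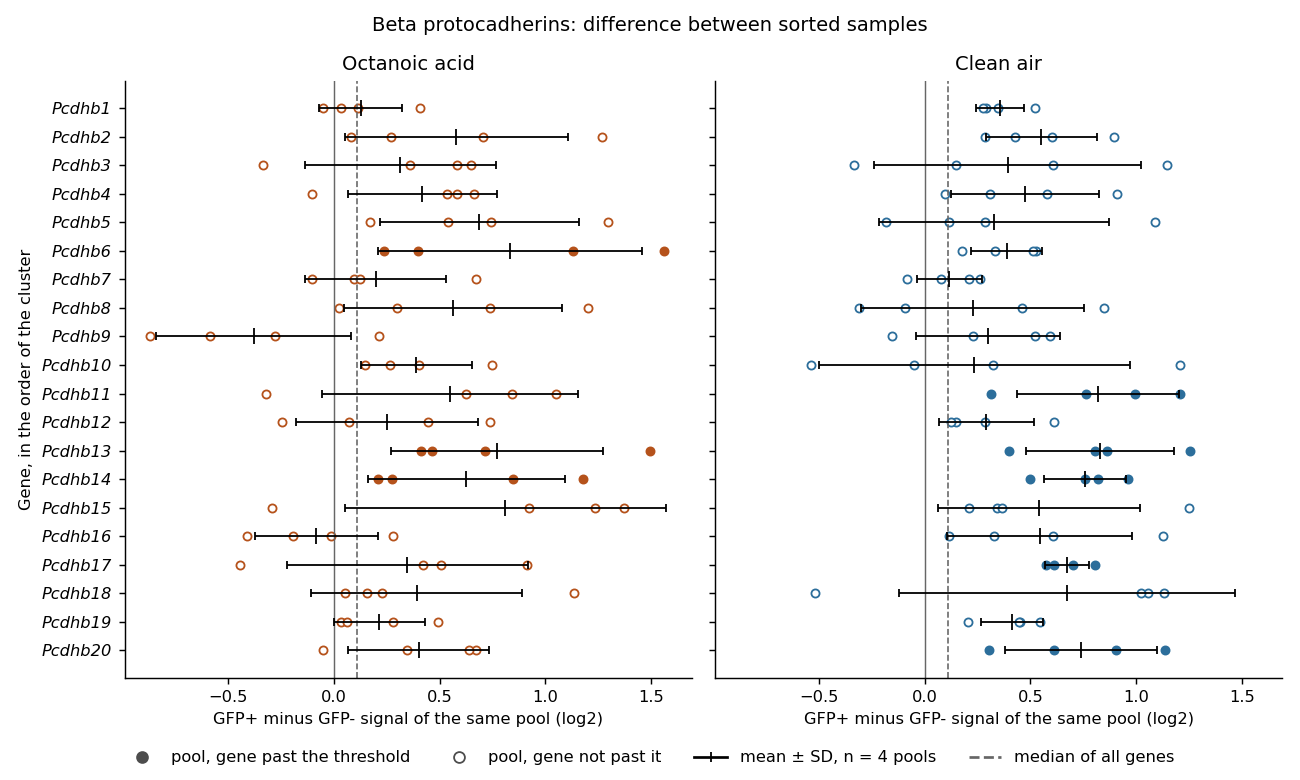
Difference between the sorted samples of each pool (x axis, GFP+ minus GFP- signal, log2) for the 20 beta protocadherins in the order of the cluster (y axis), with octanoic acid on the left and clean air on the right; points are pools, filled where the gene passed the threshold, bars are mean ± SD over 4 pools, and the dashed line is the median of all genes. Most points lie to the right of 0 in both treatments, with Pcdhb9 and Pcdhb16 on the left with octanoic acid.

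Pcdhb11 had 8.44, 8.65, 7.31 and 8.37 log2 in octanoic GFP+ arrays and 7.81, 7.60, 7.63 and 7.53 in octanoic GFP- arrays, and the GFP+ array of pool 3 lay under all 4 GFP- arrays. In clean air it had 8.34, 8.44, 8.37 and 8.76 log2 in GFP+ arrays and 7.57, 7.45, 8.05 and 7.55 in GFP- arrays, without overlap. The difference was 0.55 ± 0.60 log2 with octanoic acid (limma adjusted p = 0.125) and 0.82 ± 0.38 log2, or 1.77-fold, with clean air (limma adjusted p = 0.0284; SD, n = 4 pools each).

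Pcdhb17 had 9.67, 9.52, 8.22 and 9.51 log2 in octanoic GFP+ arrays and 9.24, 8.61, 8.66 and 9.0 in octanoic GFP- arrays. Pool 3 again had the lowest GFP+ signal, under its own GFP- array. In clean air Pcdhb17 had 9.73, 9.43, 9.36 and 9.47 log2 in GFP+ arrays and 9.16, 8.63, 8.75 and 8.77 in GFP- arrays. These groups did not overlap, and the SD of the differences over the clean air pools was the smallest among the members. The difference was 0.35 ± 0.57 log2 with octanoic acid (limma adjusted p = 0.262) and 0.67 ± 0.10 log2, or 1.60-fold, with clean air (limma adjusted p = 0.0390; SD, n = 4 pools each).

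Pcdhb20, the last of the members in the reference order, had 10.01, 9.83, 8.98 and 9.73 log2 in octanoic GFP+ arrays and 9.34, 9.20, 9.03 and 9.39 in octanoic GFP- arrays, with the GFP+ array of pool 3 the lowest of all 8. In clean air it had 9.43, 9.72, 9.47 and 10.04 log2 in GFP+ arrays and 9.13, 8.81, 8.86 and 8.91 in GFP- arrays, and the groups were apart. The difference was 0.40 ± 0.33 log2 with octanoic acid (limma adjusted p = 0.159) and 0.74 ± 0.36 log2, or 1.67-fold, with clean air (limma adjusted p = 0.0153; SD, n = 4 pools each).

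Pcdhb14 had 10.62, 9.76, 10.19 and 10.09 log2 in clean air GFP+ arrays and 9.87, 8.94, 9.69 and 9.13 in clean air GFP- arrays. Its GFP+ array was the higher one in every pool, and pools with a bright GFP+ array also had a bright GFP- array, so the groups overlapped. The difference was 0.76 ± 0.19 log2 or 1.69-fold (SD, n = 4 pools; limma adjusted p = 0.0143). Pcdhb13 had 7.42, 6.51, 6.87 and 7.01 log2 in clean air GFP+ arrays and 6.56, 5.71, 6.47 and 5.76 in clean air GFP- arrays. The GFP- mean was again at background, and the difference was 0.83 ± 0.35 log2, or at least 1.51-fold (SD, n = 4 pools; limma adjusted p = 0.0156). Pcdhb6, past the threshold with octanoic acid, had a clean air difference of 0.39 ± 0.17 log2 that did not pass (SD, n = 4 pools; limma adjusted p = 0.269).

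**Figure D2:**
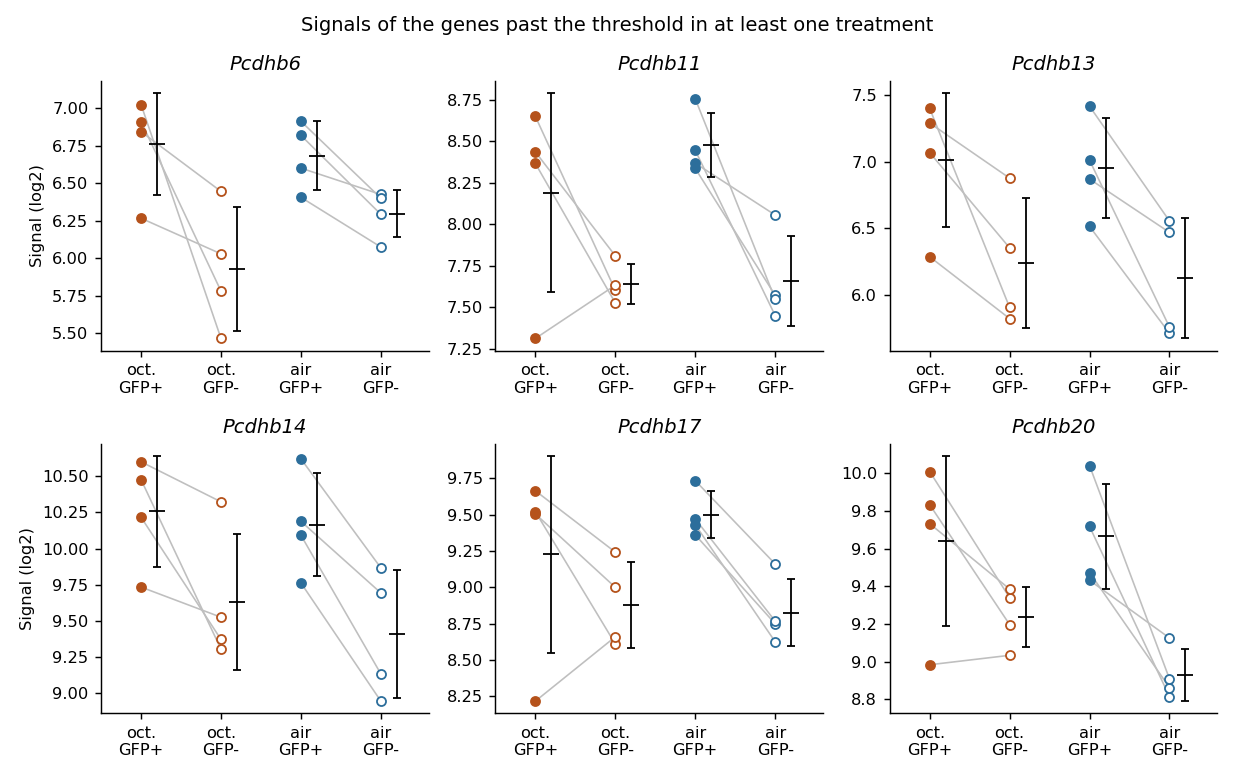
Log2 signal (y axis) of the 6 genes past the threshold in at least 1 treatment, in each array of the 4 groups (x axis); lines join the GFP+ and GFP- sample of a pool, and bars beside the points are mean ± SD over 4 arrays. In clean air the GFP+ and GFP- arrays of Pcdhb11, Pcdhb17 and Pcdhb20 are apart, and with octanoic acid 1 GFP+ array of each lies under the GFP- array of its pool.

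In clean air, 13 members were higher in GFP+ cells in 4 of 4 pools, against 23.5% of all genes, and 4 members (Pcdhb1, Pcdhb11, Pcdhb17 and Pcdhb20) had every GFP+ array above every GFP- array, against 9.82% of all genes. The remaining 15 members had adjusted p-values from 0.0768 to 0.686. The number past the threshold was 1 without pool 1, 1 without pool 2, 4 without pool 3 and 0 without pool 4, while 3.82%, 3.72%, 4.04% and 3.17% of all genes were higher in the same 4 fits. The median over members stayed between 0.38 and 0.49 log2 when any pool was left out.

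The size of the members' difference depended on how arrays were scaled to each other. With octanoic acid and with clean air, 16 and 15 members were higher when each array was centered on its median, 14 and 10 after quantile normalization, and 1 and 0 when each array was centered on mature olfactory neuron genes, and 0 were lower under any of these. Under that last scaling the difference turned below 0 for Pcdhb1 and Pcdhb7 with octanoic acid and for Pcdhb7 with clean air, and Pcdhb16 turned above 0 with octanoic acid under the first 2. The scalings moved the median of all genes as well, to 0.42 and 0.38, 0.15 and 0.13, and -0.10 and -0.12 log2. Relative to it, the members' median was 0.29 log2 higher with octanoic acid and 0.33 log2 with clean air without rescaling, and 0.45 and 0.46 log2 higher after quantile normalization. Either centering moves all genes of an array by the same amount. Under it the gap therefore stays at 0.29 and 0.33 log2 by construction, which tests nothing.

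By pool, the median of the members' differences was 0.22, 0.71, 0.15 and 0.43 log2 in octanoic pools 1 to 4, and 0.38, 0.31, 0.56 and 0.56 log2 in clean air pools 1 to 4. It was above 0 in all 8 pools, lowest in octanoic pool 3 and highest in octanoic pool 2. Of the 80 differences per treatment, 1 per member and pool, 65 were above 0 with octanoic acid and 71 with clean air. Of all genes, 50.7% to 60.2% were above 0 in single octanoic pools and 56.8% to 58.0% in single clean air pools. The members of a pool share its arrays, so the 80 values are not independent. The negative-control probe sets also differed between the sorted samples. With clean air their median difference was 0.10 log2, with 60.4% above 0, less than the members' 0.44 log2, whereas with octanoic acid it was above the members' median, as given with that comparison. By pool that median was 0.22, 0.17, 0.87 and 0.56 log2 with octanoic acid and 0.30, 0.00, 0.45 and -0.39 log2 with clean air. The members' median was above that of the negative controls in octanoic pools 1 and 2 and in all 4 clean air pools, and under it in octanoic pools 3 and 4. The part of this shift of the negative controls in the members' differences was not tested.

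**Figure D3:**
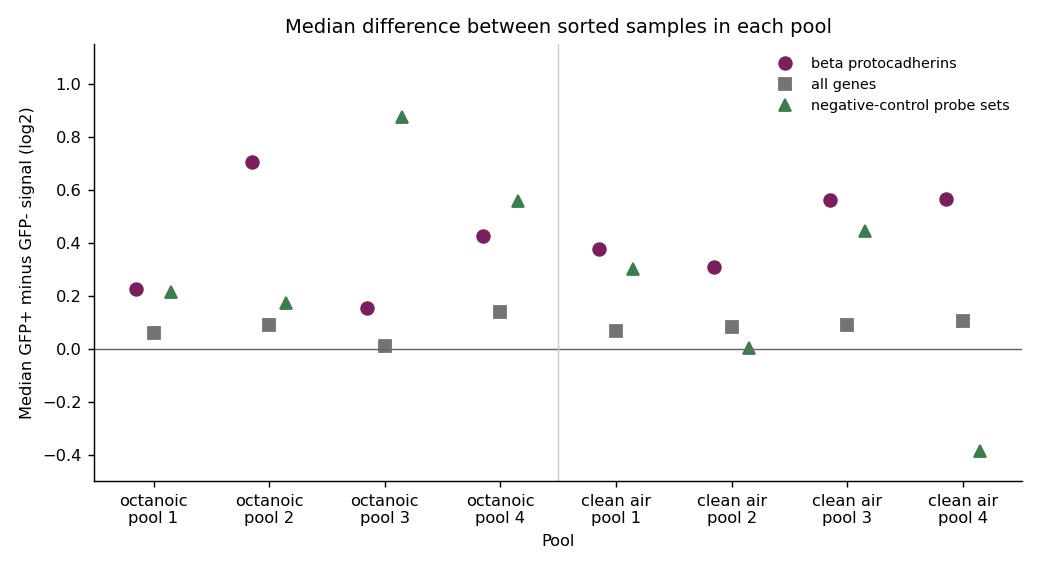
Median GFP+ minus GFP- difference (y axis, log2) in each of the 8 pools (x axis), for the 20 beta protocadherins (circles), all genes (squares) and the negative-control probe sets (triangles). The members lie above the median of all genes in each pool, and the negative controls exceed them in octanoic pools 3 and 4.

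Whether the odor changed the enrichment was asked by setting the within-pool differences of the octanoic pools against those of the clean air pools. No beta protocadherin passed: limma called 0 of 20 members and 0% of all genes at an adjusted p under 0.05, and the smallest adjusted p of any member was 0.940. At an unadjusted p under 0.05 there were 2 members, against 4.47% of all genes. The estimates ran from -0.68 log2 for Pcdhb9 to 0.45 log2 for Pcdhb6, with a median of -0.07 log2 beside -0.03 log2 over all genes. The 95% intervals of 18 members held 0, and over the members they reached from -1.29 to 1.10 log2, and their full widths ran from 0.88 to 1.70 log2.

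Pcdhb9 had GFP+ minus GFP- differences of -0.58, 0.21, -0.87 and -0.28 log2 in the octanoic pools and 0.52, 0.23, 0.59 and -0.15 log2 in the clean air pools. It was lower in GFP+ cells in 3 of 4 octanoic pools and higher in 3 of 4 clean air pools, and the treatments overlapped. The odor effect was -0.68 log2 with a 95% interval from -1.29 to -0.07 (limma unadjusted p = 0.0322, adjusted p = 0.940). Pcdhb16 had -0.19, 0.28, -0.41 and -0.01 log2 in the octanoic pools and 0.33, 0.12, 1.12 and 0.61 log2 in the clean air pools. Again 3 of 4 octanoic pools were below 0, all clean air pools were above it, and the treatments overlapped through pool 2 of each. Its odor effect was -0.63 log2 with a 95% interval from -1.21 to -0.05 (limma unadjusted p = 0.0365, adjusted p = 0.940). For Pcdhb6 the estimate was 0.45 log2 with an interval from -0.21 to 1.10 (limma adjusted p = 0.940).

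**Figure D4:**
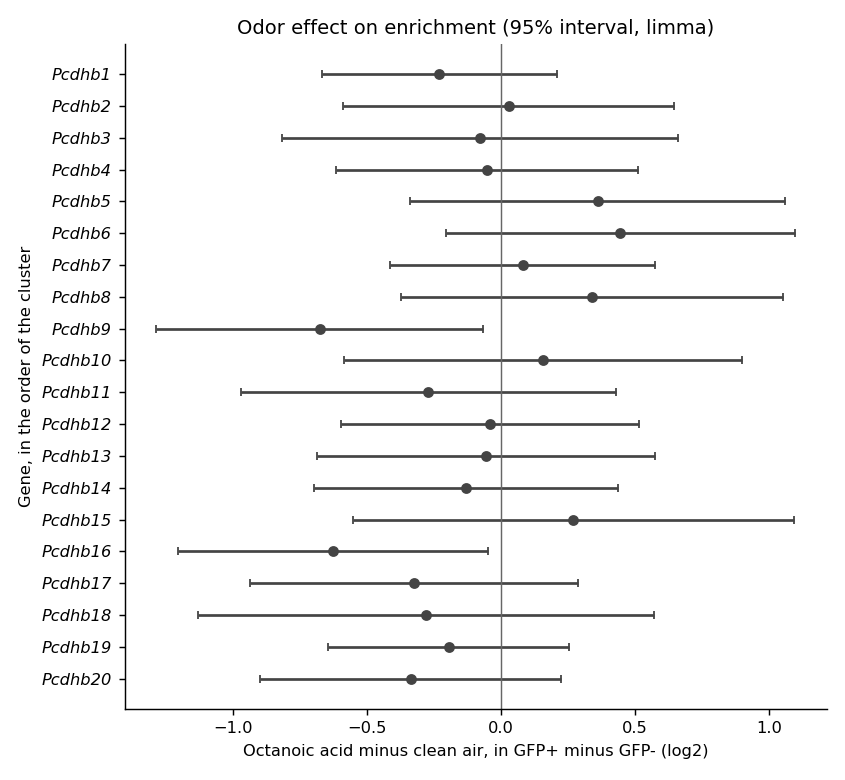
Odor effect on the enrichment (x axis, octanoic acid minus clean air in the GFP+ minus GFP- difference, log2) for the 20 beta protocadherins in the order of the cluster (y axis); points are limma estimates from 4 pools per treatment and bars are 95% intervals. The intervals of Pcdhb9 and Pcdhb16 lie below 0 before adjustment, and the other 18 hold 0.

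Within GFP+ cells, octanoic acid against clean air gave 0 of 20 members past the limma threshold, with 0 also at an unadjusted p under 0.05, against 0% and 3.67% of all genes. The differences ran from -0.35 log2 for Pcdhb9 to 0.39 log2 for Pcdhb8, with a median of -0.05 log2. Pcdhb8 had 8.44, 8.63, 9.31 and 8.66 log2 in octanoic GFP+ arrays and 8.18, 8.13, 8.81 and 8.35 in clean air GFP+ arrays. All octanoic arrays but that of pool 3 lay between the 2 brightest clean air arrays, so the groups overlapped, and the 95% interval of the difference ran from -0.11 to 0.90 log2. Pcdhb9 had 8.80, 9.09, 8.69 and 8.81 log2 in octanoic GFP+ arrays and 9.20, 9.08, 9.64 and 8.89 in clean air GFP+ arrays. The octanoic arrays of pools 1, 3 and 4 were under every clean air array, and the interval ran from -0.78 to 0.07 log2. Pcdhb16 had 9.30, 9.16, 8.88 and 8.92 log2 in octanoic GFP+ arrays and 9.47, 8.72, 9.79 and 9.65 in clean air GFP+ arrays, with the array of clean air pool 2 the lowest.

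Within GFP- cells, octanoic acid against clean air again gave 0 of 20 members past the limma threshold and 0 at an unadjusted p under 0.05, against 0% and 3.8% of all genes. The differences ran from -0.37 log2 for Pcdhb6 to 0.32 log2 for Pcdhb9, with a median of 0.05 log2, and both GFP- groups of Pcdhb6 were at background. Pcdhb20 had 9.34, 9.20, 9.03 and 9.39 log2 in octanoic GFP- arrays and 9.13, 8.81, 8.86 and 8.91 in clean air GFP- arrays. Its groups overlapped only through octanoic pool 3 and clean air pool 1, and the interval of its difference ran from -0.03 to 0.66 log2. The GFP- groups of Pcdhb1 did not overlap, at 15.95 to 16.11 log2 with octanoic acid against 15.75 to 15.94 with clean air. Its difference was 0.17 log2, with an interval from -0.14 to 0.49 log2 (limma adjusted p = 0.985). How many of all genes lack overlap in this comparison is not given here. Over the members, the 95% intervals reached from -0.96 to 0.90 log2 in GFP+ cells and from -1.0 to 0.82 log2 in GFP- cells, and all 20 held 0 in both.

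The nonclustered protocadherins, adhesion genes that lie outside the clusters, were measured beside the beta genes. Of 11 measured, 4 were higher in GFP+ cells in each treatment, Pcdh7, Pcdh8, Pcdh10 and Pcdh17, and 1, Pcdh11x, was lower with octanoic acid. Of all genes, 6.26% were higher and 10.9% lower with octanoic acid, and 5.83% and 9.58% with clean air. The median difference of the 11 genes was 0.36 log2 with octanoic acid and 0.58 log2 with clean air, beside 0.40 and 0.44 log2 for the beta protocadherins. Pcdh10, which has a part in the growth of axons in the mouse brain, had 11.08, 10.54, 9.23 and 10.35 log2 in octanoic GFP+ arrays and 9.03, 7.86, 8.57 and 8.36 in octanoic GFP- arrays. All GFP+ arrays were above all GFP- arrays, and the difference was 1.85 ± 0.85 log2, or 3.59-fold (SD, n = 4 pools; limma adjusted p = 0.000362). In clean air Pcdh10 differed by 1.76 ± 0.27 log2 (SD, n = 4 pools; limma adjusted p = 0.000566). Pcdh19, whose human counterpart is an epilepsy gene, differed by -0.39 log2 with octanoic acid and by -0.22 log2 with clean air and passed in neither.

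Among 23 measured genes of promoter choice and chromatin, 0 were higher in GFP+ cells in either treatment, against 6.26% and 5.83% of all genes. Lower were 3 with octanoic acid (Smchd1, Rest and Atf7ip) and 1 with clean air (Smchd1), against 10.9% and 9.58% of all genes. Smchd1, which in mice keeps clustered protocadherin genes repressed, averaged 8.68 ± 0.58 log2 in octanoic GFP+ and 10.68 ± 0.33 log2 in octanoic GFP- cells, a difference of -2.0 ± 0.79 log2 (SD, n = 4 each; limma adjusted p = 9.7e-05). In clean air the difference was -1.61 ± 0.12 log2 (SD, n = 4 pools; limma adjusted p = 0.000583). The leukocyte genes, which were lower in the same arrays by a median of 6.10 log2 with octanoic acid and 5.56 log2 with clean air, moved the same way, and their part in the change of Smchd1 was not tested. Ctcf differed by -0.27 log2 with octanoic acid and 0.03 log2 with clean air, and Rad21, a cohesin subunit, by -0.04 and -0.03 log2, and neither gene passed.

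Genes whose proteins act with the cytoplasmic ends of clustered protocadherins are known mainly as partners of alpha and gamma proteins. Of 13 measured, Abi2, a subunit of the WAVE actin regulator, was higher in GFP+ cells in both treatments, by 0.74 log2 with octanoic acid and 0.56 log2 with clean air. Marcks (-2.31 and -2.53 log2), Fyn (-1.17 and -0.89 log2) and Rac1 (-0.95 and -0.79 log2) were lower in both, and Ptk2b was lower with octanoic acid, where both of its groups lay at background. Leukocyte genes, and immature neuron genes by a median of 0.97 log2 with octanoic acid and 1.04 log2 with clean air, were lower in the same arrays, and their part in these differences was not tested. Among 8 measured genes of protein processing and neuronal patterning, Adam10, a protease that sheds protocadherin ectodomains, was lower in GFP+ cells, by -1.07 log2 with octanoic acid and -0.74 log2 with clean air. Psen2 (0.74 log2) and Fzd3 (0.58 log2) were higher with clean air. Beside both lists, 6.26% of all genes were higher and 10.9% lower with octanoic acid, and 5.83% and 9.58% with clean air.

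The nearest measured genes on either side of the beta genes in the reference order that are not clustered protocadherins gave no call. Unmeasured clustered genes can lie between them and the beta genes. Of these 8 genes, 4 on each side (Zmat2, Hars2, Hars and Dnd1 upstream, Slc25a2, Taf7, Diaph1 and Hdac3 downstream), 0 passed the limma threshold in any of the 5 comparisons. Of all genes, 17.2% passed in either direction between GFP+ and GFP- cells with octanoic acid and 15.4% with clean air. In the odor comparisons 0% of all genes passed. Whether 0 of 8 departs from these shares was not tested. Dnd1, Slc25a2 and Taf7 were at background in all 4 groups. The differences of the 8 genes between GFP+ and GFP- cells ran from -0.58 to 0.28 log2 with octanoic acid and from -0.15 to 0.48 log2 with clean air.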

How the data were processed

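Each deposited value is the log2 signal of 1 probe set on 1 array, which the authors obtained in Affymetrix Expression Console, per the submitters' processing notes. Its version, the summary method and the genome build are not given in the sources used here, and the range of the values, 2.13 to 19.5, fits a log2 scale. Of 28846 probe sets, 6640 are controls and 19572 carry 1 gene symbol in the platform annotation. The other 2634, with no symbol or with more than 1, were left out. For genes with several probe sets the brightest was kept, which left 19505 genes. All matched the reference gene table (GRCm38.p6), used for names and gene order only.

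Since the mice of a pool gave both its GFP+ and its GFP- sample, GFP+ minus GFP- was taken within each of the 8 pools. Two-sided tests with limma (version 3.58.1, functions lmFit and eBayes, under R 4.3.3) set each treatment's mean against 0 and the difference between treatments against 0, and octanoic acid against clean air within GFP+ and within GFP- arrays. The Benjamini-Hochberg adjustment ran over all genes, and an adjusted p under 0.05 counted as past the threshold. Folds were taken from mean log2 signals. Where the dimmer group was at background, arrays of it below 6.20 log2 were set to 6.20 and the fold is given as at least that size. That bound is relative to this common level, not to the background of each array. The fits were tested on simulated data. Arrays have no read depth, and 4 pools per treatment limit the precision.

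Octanoic and clean air pools also share numbers in the labels. The deviations of same-numbered pools from their group means correlated at 0.179, 0.110, 0.237 and 0.100 for the within-pool differences, at 0.371, 0.100, 0.219 and 0.138 in GFP+ cells and at 0.408, 0.100, -0.0986 and 0.153 in GFP- cells. Between the GFP+ and GFP- arrays of a pool they correlated at 0.39, -0.24, 0.36 and 0.10 with octanoic acid and at 0.25, 0.15, 0.07 and 0.23 with clean air. These values do not favor either pairing. The pairing within pools rests on the shared mice, and a pairing by number was tried only as an alternative.

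Members were named where they passed the threshold, were among the 3 with the highest mean signal, or had 1 of the 3 smallest p-values in a comparison without calls. Of other lists, up to 4 genes past the threshold with the largest difference were named per comparison, with S100a5 and Omp, and Pcdh19, Ctcf, Rad21 and the genes beside the cluster were chosen outside this rule. Members and lists were chosen with earlier results of these data known. Alternatives were 3 scalings, 2 filters on dim genes, a variance prior with an intensity trend, the mean of a gene's probe sets, fits with or without the replicate block, and fits without single pools.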

Additional observations from a re-analysis of the deposited data

Results flagged for a closer look

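Of 120 sets of 4 values (20 members by 4 groups of arrays and 2 sets of within-pool differences), 11 held a value far from the other 3 by Dixon's criterion. That is 9.17% of the sets, where chance flags about 1 in 20. The differences come from the same arrays as the groups, so 1 odd array can be flagged more than once. Among GFP+ arrays, Pcdhb17 had 8.22 log2 in octanoic pool 3, below the other octanoic arrays at 9.51 to 9.67, and Pcdhb18 had 7.09 log2 in clean air pool 2, below the others at 8.35 to 8.47. In octanoic GFP- arrays, Pcdhb4 had 9.13 log2 in pool 1 (others 8.56 to 8.63), Pcdhb7 had 8.0 log2 in pool 1 (others 7.19 to 7.32) and Pcdhb12 had 7.87 log2 in pool 3 (others 6.89 to 7.00). In clean air GFP- arrays, Pcdhb3 had 6.09 log2 in pool 4 (others 5.24 to 5.34, all at background) and Pcdhb5 had 8.15 log2 in pool 4 (others 7.06 to 7.22).

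Of the within-pool differences, Pcdhb4 stood at -0.10 log2 in octanoic pool 1 (others 0.53 to 0.66) and Pcdhb18 at 1.13 log2 in octanoic pool 2 (others 0.05 to 0.23). Pcdhb15 stood at 1.25 log2 in clean air pool 4 (others 0.21 to 0.36) and Pcdhb18 at -0.52 log2 in clean air pool 2 (others 1.02 to 1.13). Pcdhb18 was the member with the most such values, 3 of the 11, of which the array and the difference of clean air pool 2 share that array.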

How the results depend on the processing

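The number of members higher in GFP+ cells, 3 with octanoic acid and 5 with clean air, moved with scaling, to 16 and 15 (array medians), 14 and 10 (quantile) and 1 and 0 (mature neuron genes), and the members' median was 0.70 and 0.71, 0.60 and 0.59, and 0.18 and 0.22 log2, against 0.40 and 0.44 log2. All genes split into 39.9% higher and 8.79% lower with octanoic acid, and 31.2% and 8.05% with clean air, under array medians, into 13.3% and 10.4%, and 9.3% and 9.14%, under quantile normalization, and into 2.59% and 15.1%, and 2.8% and 13.2%, under mature neuron genes. A filter at the 75th percentile of the negative controls left 1 member higher with octanoic acid, since it removes Pcdhb6 and Pcdhb13. It kept 11 members, and 9.45% of the genes it kept were higher. Without octanoic pool 3 and clean air pool 4 together, 5 and 2 members were higher, against 4.21% and 3.49% of all genes. Leaving out any 1 pool gave 0 to 5 members in each treatment. With no replicate block, GFP+ against GFP- arrays unpaired, 1 and 2 members were higher, against 5.0% and 4.57% of all genes. For the odor comparisons, a block that pairs pools by number changed no call: it gave 0 members in each direction, with an adjusted p of 0.802 for the odor effect of Pcdhb9. Single genes changed sign: Pcdhb7 to -0.015 with octanoic acid and -0.11 log2 with clean air, both under mature neuron genes, Pcdhb10 to -0.088 log2 with clean air without clean air pool 3, and with octanoic acid Pcdhb1 to -0.086 log2 under mature neuron genes and Pcdhb16 to 0.22 log2 under array medians, 0.11 under quantile normalization, and 0.026 both without pool 3 alone and without it and clean air pool 4 (range with any 1 pool left out -0.20 to 0.026). For changes other than the filter's, the cause was not tested. No member passed as lower, and none passed between the treatments, under any alternative. The number of pools, and signals near the negative controls for 6 members, limit what could be seen.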

Other observations

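Along the cluster, the first 10 members in the reference order (Pcdhb1 to Pcdhb10) had a median GFP+ minus GFP- difference of 0.40 log2 with octanoic acid, and the last 10 (Pcdhb11 to Pcdhb20) also 0.40 log2. With clean air the medians were 0.34 log2 for the first and 0.67 log2 for the last 10. This split was chosen after the values were seen and was not tested. The members with the highest difference in a pool were not the same from pool to pool: Pcdhb15, Pcdhb13, Pcdhb5 and Pcdhb6 in octanoic pools 1 to 4, and Pcdhb3, Pcdhb11, Pcdhb10 and Pcdhb13 in clean air pools 1 to 4. Of these, Pcdhb3, Pcdhb10 and Pcdhb15 were at background in all 4 groups, so that their rank has no meaning.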
